A study of Mus musculus with 2 samples.

Results

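Tet1, Tet2, Tet3 and Tdg encode the enzymes of active cytosine demethylation, and the CpG states of the DNA of these 4 genes were read here in mouse embryonic stem cells (mESCs). The members are the 3 TET dioxygenase genes and the thymine DNA glycosylase gene, a rule by name that uses no measured value. They are 4 of 21755 protein-coding genes on chromosomes 1 to 19 and X. Each locus was taken as the gene plus the 5 kb upstream of its start. The loci held 2744 of 13676795 covered CpG sites in replicate 1 and 1097 of 4918612 in replicate 2.

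The study sequenced genomic DNA of the E14 line, grown in serum with leukaemia inhibitory factor (LIF) on gelatin, in 2 replicate libraries of 1 condition. No genotype or treatment differs between the libraries, and E14 is a single cultured line, so the levels describe this line under these conditions. SCoTCH-seq, the assay used, reads both strands of the same CpG in 1 read pair, and gives each CpG a state made of the base on the plus strand and the base on the minus strand. C is unmodified cytosine, M is 5-methylcytosine (mC) and H is 5-hydroxymethylcytosine (hmC), which gives 9 states, written as CC, MC/CM (hemimethylated), MM (symmetrically methylated), HC/CH, HM/MH and HH once the orientations are joined.

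TET proteins are dioxygenases that oxidise mC to hmC and onward to formylcytosine and carboxylcytosine. TDG cuts the latter pair of bases out of DNA, and base excision repair then puts back unmodified cytosine. In mESCs in serum Tet1 and Tet2 are the TET genes known to be active, whereas Tet3 is best known from the oocyte, the zygote and later tissues, and loss of Tdg is lethal to the embryo. No transcript was measured in the files used here, so each value below is a property of the DNA of these genes and not of their output.

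A level is the percentage of all calls in a region that had a given state. A CpG had at least 5 calls to be listed, and the 4 loci held 27966 calls in replicate 1 and 7062 in replicate 2, or 10.2 and 6.44 calls per listed site. These sites were 67.6% and 27.0% of the 4062 CpGs of the loci in the reference genome, against a mean depth of 10.5 and 6.36 calls over the whole libraries. The promoter was 1 kb either side of a start and the gene body ran from 1 kb downstream of the start to the gene end. The replicates came from different passages of the line, but every p-value below compares calls within 1 library, which measures counting error and not the spread between cultures. Intervals are exact Clopper-Pearson intervals at the 95% level and cover counting error only. The exact tests and intervals treat calls as independent, although calls of the same CpG or read pair need not be. They therefore leave out the spread between CpG sites. A level between the extremes cannot be told apart from a mixture of cells or alleles in different states. Of 6 marker genes of embryonic stem cells, 5 had promoters with at least 80% CC calls in both replicates, beside 53.3% of all 14977 genes read. These 5 ran from Nanog (80.1% and 86.2%) to Sox2 (99.8% and 100%). Esrrb, at the start annotated furthest upstream, had 28.0% and 15%.

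Each of the 4 genes has more than 1 annotated start of protein-coding transcripts, and the state of the DNA differed between the starts of a gene. Tet1 (ENSMUSG00000047146.17) is on the minus strand of mouse chromosome 10 at chr10:62804570-62908996 (GRCm38/mm10), with 6 starts. Tet2 (ENSMUSG00000040943.12, chr3:133463679-133545139, minus strand) has 2, Tet3 (ENSMUSG00000034832.15, chr6:83362373-83459084, minus strand) has 3, and Tdg (ENSMUSG00000034674.18, chr10:82629828-82650799, plus strand) has 3. The gene start is the most upstream of them in GENCODE. The 150 bases ahead of 6 of these starts are shown, those of each gene start and, for Tet1 and Tet3, of the internal start with the most CpGs within 1 kb. They were read from the GRCm38.p6 genome of RefSeq on the strand of the gene, 5′ to 3′, overlap no annotated exon of the gene, and have each CpG in capitals.
Tet1 gene start, chr10:62908997-62909146: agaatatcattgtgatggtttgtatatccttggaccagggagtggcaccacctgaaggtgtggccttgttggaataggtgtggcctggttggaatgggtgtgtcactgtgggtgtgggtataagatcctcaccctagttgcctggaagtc
Tet1 start 21.5 kb downstream, chr10:62887513-62887662: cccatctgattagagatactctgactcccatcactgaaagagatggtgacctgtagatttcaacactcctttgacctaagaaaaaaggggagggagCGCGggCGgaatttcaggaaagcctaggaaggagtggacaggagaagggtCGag
Tet2 gene start, chr3:133545140-133545289: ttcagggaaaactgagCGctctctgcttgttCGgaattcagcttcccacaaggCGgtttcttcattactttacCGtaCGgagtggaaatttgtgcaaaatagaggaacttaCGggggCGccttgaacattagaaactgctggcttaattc
Tet3 gene start, chr6:83459085-83459234: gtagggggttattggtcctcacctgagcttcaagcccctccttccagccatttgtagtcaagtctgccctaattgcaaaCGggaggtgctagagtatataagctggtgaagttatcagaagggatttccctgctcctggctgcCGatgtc
Tet3 start 2.69 kb downstream, chr6:83456393-83456542: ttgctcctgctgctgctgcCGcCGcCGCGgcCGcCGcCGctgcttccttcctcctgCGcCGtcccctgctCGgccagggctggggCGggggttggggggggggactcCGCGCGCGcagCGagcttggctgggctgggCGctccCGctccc
Tdg gene start, chr10:82629678-82629827: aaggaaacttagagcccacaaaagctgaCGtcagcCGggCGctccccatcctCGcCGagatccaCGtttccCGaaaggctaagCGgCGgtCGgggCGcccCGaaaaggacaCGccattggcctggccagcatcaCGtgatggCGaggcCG
The stretch ahead of the Tet1 gene start holds 0 CpGs and that ahead of the Tet1 start 21.5 kb downstream holds 4. For Tet3 the counts are 2 at the gene start and 18 at the start 2.69 kb downstream, where 79.3% of the bases are G or C. Tet2 has 7 and Tdg 16. CpG content and CC level, given below, did not always go together, since the Tet1 start 16 kb downstream has 2 CpGs in this stretch and CC at 98.7% and 100%, and the Tdg start 14.7 kb downstream has 12 and CC at 38.7% and 41.7%. In the 300-base promoters that RefSeq places at the start of each gene, Tet1 has 17 CpGs, Tet3 22, Tdg 26 and Tet2 57, against a median of 7 over 32851 promoters, and the Tet2 promoter holds more CpGs than 99.8% of them.

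Tet1, the main TET enzyme of the pluripotent state, was methylated at its gene start and unmodified at starts inside the gene. Within 1 kb of the gene start 10.2% of 176 calls were CC in replicate 1 (12 sites) and 23.8% of 21 calls in replicate 2 (3 sites), and 66.5% and 61.9% were MM. At the starts 9.88 kb, 16 kb and 21.5 kb downstream, CC was 85.5% and 86.2%, 98.7% and 100%, and 96.4% and 96.8%. The start at 21.5 kb, with 48 and 22 of its 78 CpGs covered, is the one where RefSeq begins the gene. The remaining starts lie further in. At 29.0 kb CC was 50.3% and 47.8%, and HC/CH was 13.0% (95% interval 9.77 to 16.7) and 8.89% (3.92 to 16.8). At 94.5 kb CC was 20.2% and 14%.

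Tet2, also active in mESCs, was unmodified at its gene start, where CC was 96.2% of 315 calls and 97.1% of 69 calls. Coverage was thin here, with 41 and 11 of the 130 CpGs listed. Its other start, 68.6 kb downstream, has only 2 CpGs, with CC at 14.3% and 0%. An antisense gene, Gm42567, starts just inside Tet2 on the opposite strand, so the window around the gene start belongs to both genes.

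Tet3 resembled Tet1 in order. Its gene start had CC at 19.4% and 8% and MM at 57.1% and 66.7%. At the start 2.69 kb downstream CC was 98.7% and 98.8% (23 and 14 of 174 CpGs covered), and at the start 17.4 kb downstream, where RefSeq begins the gene, 81.7% and 92.9%. An antisense transcript, B230319C09Rik, begins next to this last start. Tdg, the glycosylase, had CC at 92.6% and 94.3% at its gene start, with 34 and 13 of 109 CpGs covered. CC was 21.9% and 2.56% at the start 11.6 kb downstream and 38.7% and 41.7% at the start 14.7 kb downstream. The start with the highest CC, out of 2 to 6 per gene, was thus the gene start in Tet2 and Tdg and an internal start in Tet1 and Tet3.

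**Figure D1:**
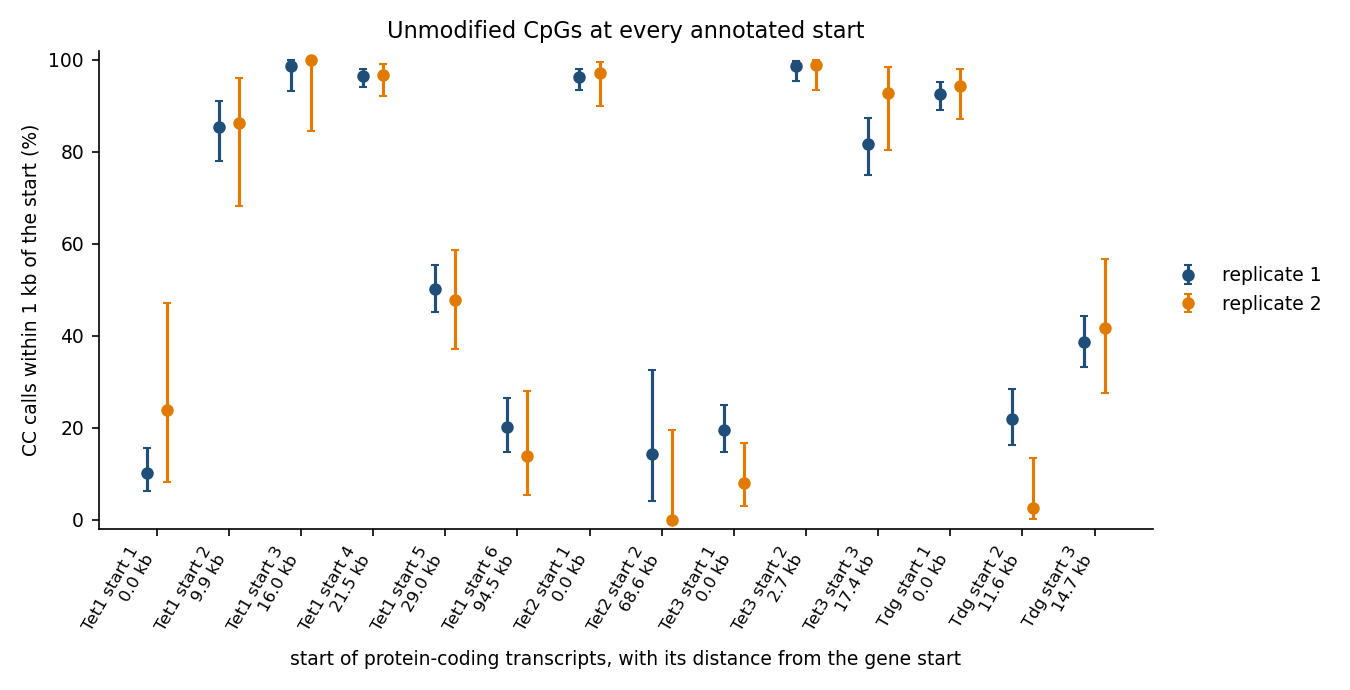
CC calls (percent of all calls within 1 kb, with 95% Clopper-Pearson bars) at every start of protein-coding transcripts of the 4 genes, 1 point per replicate, with the distance of each start from the gene start. The Tet1 and Tet3 gene starts sit below 24% and starts 16 kb inside Tet1 and 2.69 kb inside Tet3 reach 98.7% or more, whereas the gene starts of Tet2 and Tdg sit above 92%.

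Along the loci, CC was averaged in bins of 1 kb, and the longest runs of adjacent bins with at least 80% CC were chosen in replicate 1 and then read in replicate 2. In Tet1 the run from 9 to 19 kb (chr10:62889997-62899996) covered 61 sites with CC at 90.5% in replicate 1, and 23 with 89.5% in replicate 2. A further run of 7 kb, from 20 to 27 kb (chr10:62881997-62888996), had 96.6% (112 sites) and 97.7% (38 sites). The single bin between them, with 4 and 2 sites, had 75.5% and 50.0%. Together they make a stretch that starts 9 kb and ends 27 kb inside the annotated gene and includes 3 of the 6 starts.

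In the other genes the runs were shorter. Tet2 had 1 of 5 kb around its gene start (95.5% and 97.5%) and 1 of 3 kb from 10 to 13 kb (95% and 84.2%). The Tet3 runs were 2 kb from 2 to 4 kb (95.3% and 97.1%) and 1 kb from 17 to 18 kb (98.6% and 100%), and both hold an internal start. The main Tdg run was the 2 kb around its start, with 92.6% and 94.3%. A further Tdg run of 1 kb, from 8 to 9 kb, rests on 2 sites and 1 site, with 81.0% and 100%. In the second run of Tet2 the 95% interval in replicate 2 was 72.1 to 92.5% over 57 calls. Over all 1-kb bins with at least 3 sites and 20 calls in each replicate, Pearson's r of CC between the replicates was 0.942 in Tet1 (56 bins), 0.962 in Tet2 (33), 0.962 in Tet3 (51) and 0.961 in Tdg (13). Bins of a locus are neighbours in the same 2 libraries, so r is given as a description.

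**Figure D2:**
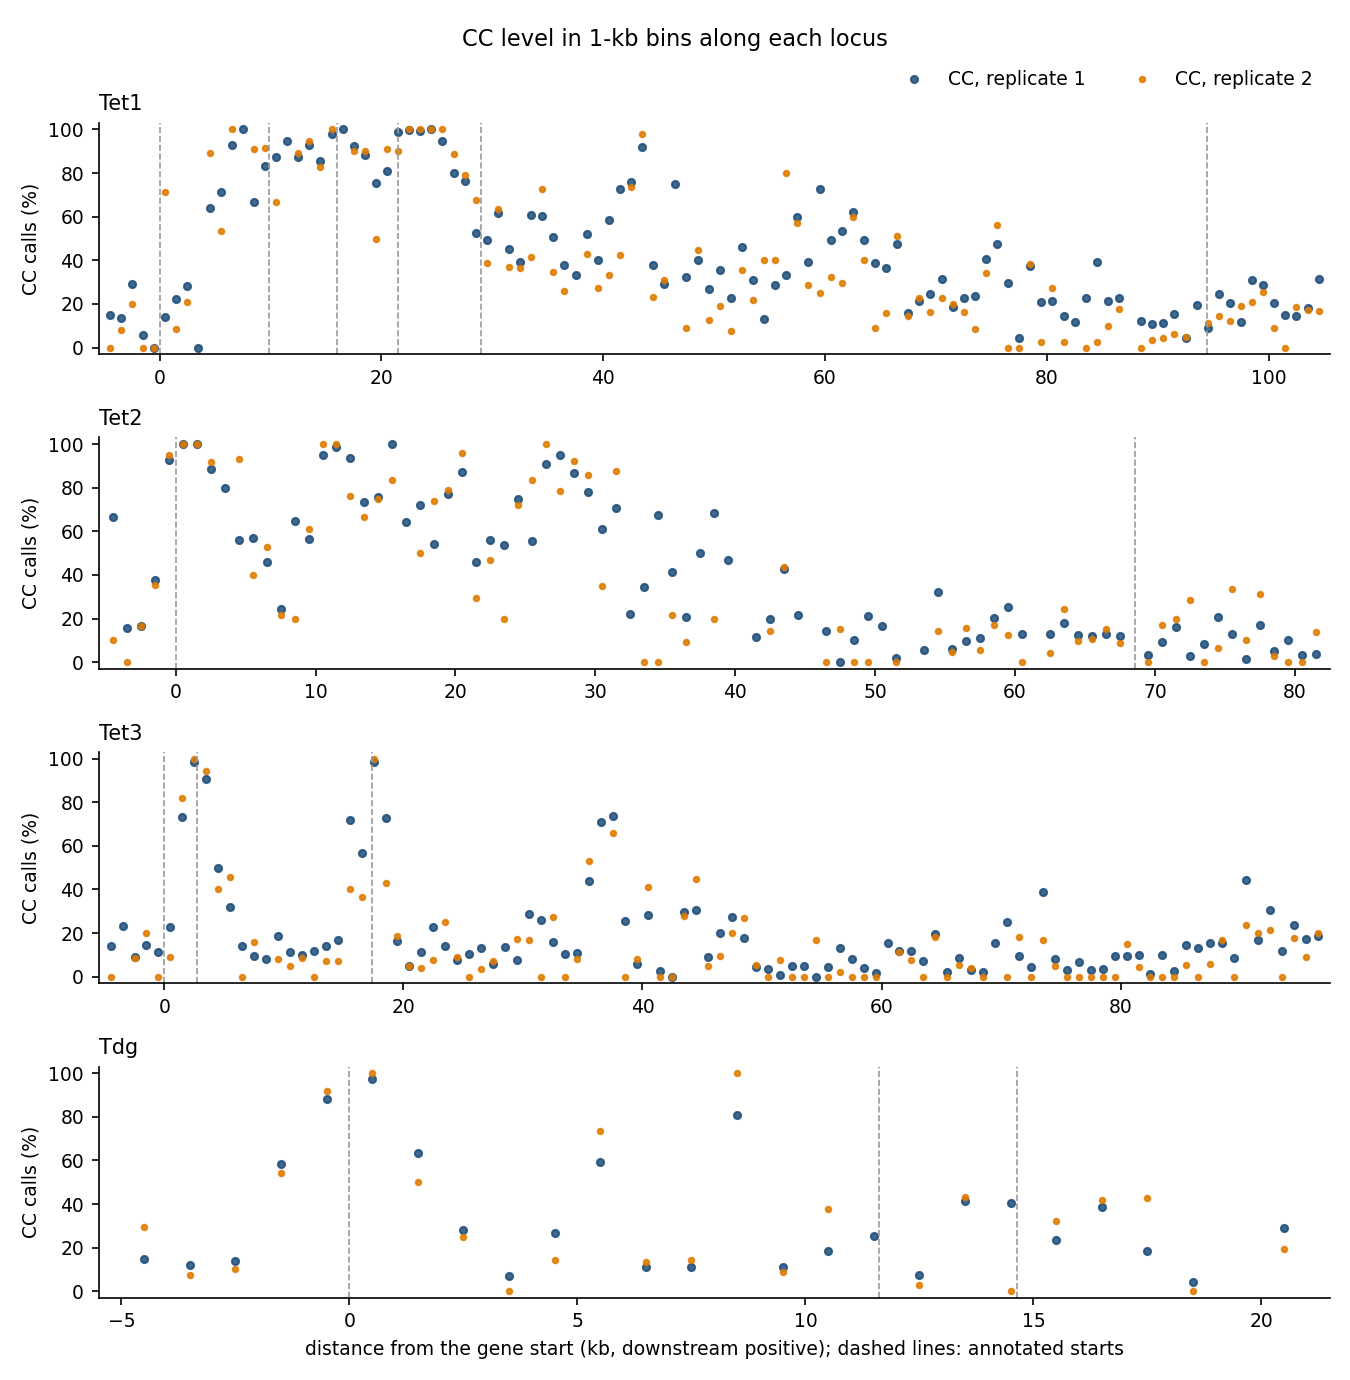
CC calls (percent) in 1-kb bins along each locus against the distance from the gene start in kb, downstream positive, 1 point per bin and replicate, with dashed lines at the annotated starts. The high CC of Tet1 spans 9 to 27 kb downstream of the gene start with a dip at 19 kb, and the CC of Tet2 and Tdg is high on the gene start, that of Tet2 again from 10 to 13 kb.

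Over wider regions, which take in parts of these runs, the loci were methylated to different degrees. In the 5 kb upstream of the gene start, of which the 1 kb nearest to the start belongs to the run in Tet2 and Tdg, CC was 11.6% and 5.77% in Tet1 and 14.1% and 6.82% in Tet3, but 59.9% and 51.1% in Tet2 and 53.0% and 51.4% in Tdg. Upstream of Tet2, HC/CH made up 8.38% and 4.55% of the calls. The gene bodies were ordered otherwise, with CC highest in Tet1. The CC level of the body was 48.7% and 40.7% in Tet1, 41.2% and 38.6% in Tet2, 30.3% and 30.3% in Tdg and 18.7% and 17.9% in Tet3, against a median of 21.1% and 17.2% over 14794 genes. Tet1 exceeded 91.9% and 89.6% of these genes, and Tet2 87.2% and 88.3%. MM ran the other way, from 32.0% and 39.5% in Tet1 through 39.4% and 42.7% in Tet2 and 48.7% and 52.3% in Tdg to 59.0% and 62.4% in Tet3, with the median gene at 55.6% and 60.6%. The bodies counted here include the runs beyond 1 kb of the start, in Tet1 the unmodified stretch from 9 to 27 kb. Counted from the RefSeq start, CC of the body was 41.4% and 31.9% in Tet1 and 40.4% and 36.8% in Tet2, so that Tet2 was the higher in replicate 2.

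The comparison of promoter with body asks how far the states at a start differ from those of the gene it heads. It was made with a two-sided Fisher's exact test in each replicate, with p-values adjusted by Benjamini-Hochberg over 12075 genes for each state, and a call needs an adjusted p under 0.05 and the same direction in both replicates. At the GENCODE gene start Tet2 and Tdg were called and Tet3 was not. In Tet2 CC was 96.2% in the promoter against 41.2% in the body in replicate 1 (adjusted p = 1.96e-94, Fisher's exact test) and 97.1% against 38.6% in replicate 2 (adjusted p = 3.28e-24, the same exact test). MM fell from 39.4% in the body to 2.22% in the promoter (adjusted p = 2.08e-54, exact test) and from 42.7% to 0% (adjusted p = 2.46e-16, exact test). In Tdg CC was 92.6% against 30.3% (adjusted p = 8.32e-107, exact test) and 94.3% against 30.3% (adjusted p = 9.03e-30, exact test), with MM at 5.36% against 48.7% and 2.30% against 52.3%, also called. MC/CM was called as well in Tdg, at 1.19% against 10.5% and 1.15% against 11.8% (adjusted p = 4.57e-10 and 0.00300, exact test), whereas in Tet2 replicate 2 missed the threshold (adjusted p = 0.0670, exact test). At the Tet3 gene start CC was 19.4% against 18.7% of the body in replicate 1 (adjusted p = 0.753, exact test) and 8% against 17.9% in replicate 2 (adjusted p = 0.0335, exact test), and no state was called. Tet1 had 3 promoter sites in replicate 2, under the minimum of 5, and was not tested at this start. These are common patterns, since CC was higher in the promoter in 83.0% of the genes tested, MM lower in 82.3% and MC/CM lower in 55.3%.

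From the GENCODE start the hydroxymethylated states of Tet2, Tet3 and Tdg gave no call between promoter and body by the exact test of calls, and Tet1 was not tested there. HC/CH was 0.952% in the Tet2 promoter against 6.40% in the body in replicate 1, and 0% against 4.43% in replicate 2 (adjusted p = 0.309, exact test). In the Tdg promoter it was 0.893% against 6.65% and 2.30% against 4.36% (adjusted p = 0.789 in replicate 2, exact test). At the Tet3 gene start HC/CH was 4.37% against 4.40% and 6.67% against 4.29%, and HM/MH 8.33% against 5.18% and 5.33% against 2.80%. The Tet1 gene start, with few calls in replicate 2, had HC/CH at 5.11% and 0% and HM/MH at 6.25% and 14.3%. Of all genes 8.46% were called lower in the promoter for HC/CH and 0.331% for HM/MH. With CpG sites in place of calls as the units, both states were called lower in the Tet2 promoter. Its sites were all at 0% in replicate 2, and for HM/MH in replicate 1 too. Such sites have no variance over sites, so the spread in that test came from the body alone. The share of all genes called with sites as the units is not reported here.

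Counted from the RefSeq start, an alternative chosen after the values at the gene start were seen, all 4 genes could be tested and all 4 gave calls of higher CC and lower MM and MC/CM. In Tet1 CC was 97.1% in the promoter against 41.4% in the body (adjusted p = 3.25e-157, Fisher's exact test) and 97.4% against 31.9% (adjusted p = 1.19e-63, exact test). In Tet3 it was 81.7% against 14.2% (adjusted p = 1.93e-80, exact test) and 92.9% against 11.1% (adjusted p = 3.63e-32, exact test). Tet1 was then also called for HC/CH, which made up 0.390% of the promoter calls against 7.69% in the body (adjusted p = 3.77e-13, exact test) and 0% against 7.86% (adjusted p = 9.64e-04, exact test). With this start CC was called higher in the promoter in 85.2% of all genes, MM lower in 84.6%, MC/CM lower in 59.2%, HC/CH lower in 10.4% and HM/MH lower in 0.391%. Promoters with at least 80% CC in both replicates numbered 2 of the 3 genes that could be read at the GENCODE start (Tet2 and Tdg), beside 53.3% of all genes, and 4 of 4 at the RefSeq start, beside 55.9%.

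**Figure D3:**
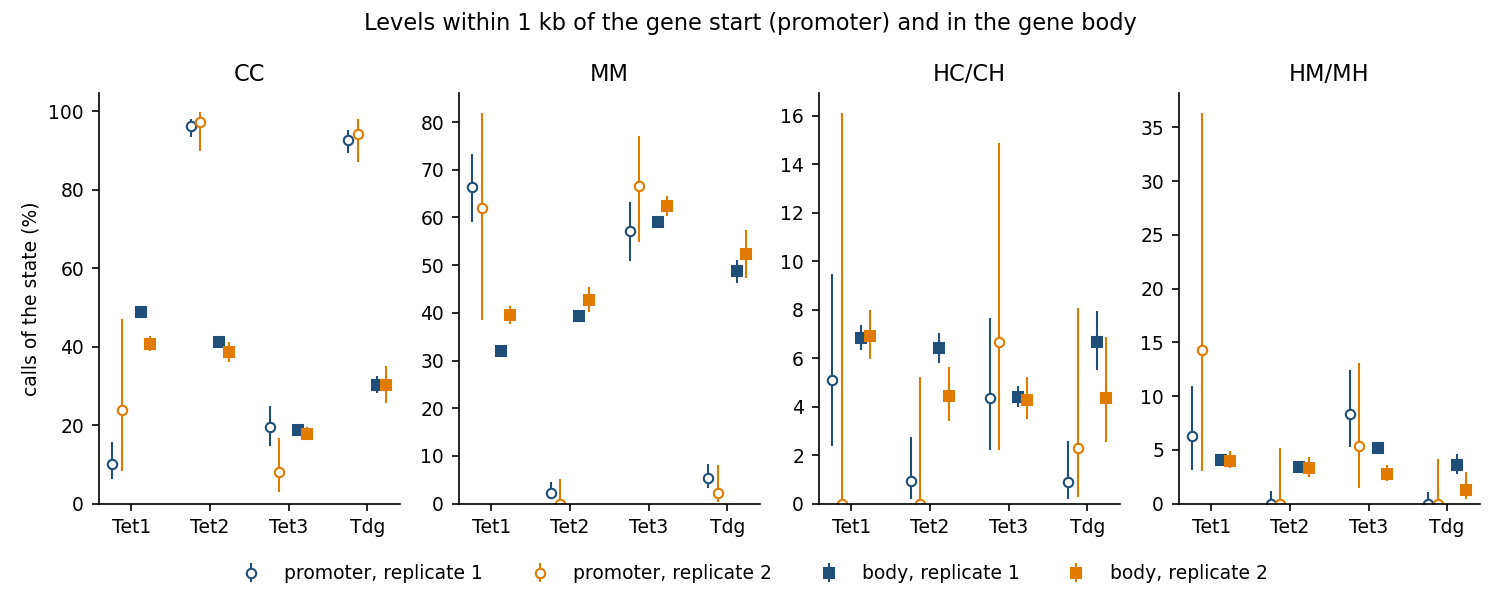
Percent of calls of CC, MM, HC/CH and HM/MH within 1 kb of the GENCODE gene start and in the gene body, 1 marker per gene, region and replicate, with 95% Clopper-Pearson bars. Promoter CC stands at 92.6% or more in Tet2 and Tdg and under 24% in Tet1 and Tet3, and HC/CH in the bodies lies between 4.29% and 6.93%.

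In the gene bodies HC/CH, in which hmC faces an unmodified cytosine, was highest in Tet1. Its level there was 6.85% of 9488 calls in replicate 1 and 6.93% of 2540 calls in replicate 2, a mean of 6.89% ± 0.055 (SD, n = 2). Tdg had 6.65% of 1683 calls and 4.36% of 390 calls (5.51% ± 1.62, or 3.21% at sites with at least 10 calls), Tet2 6.40% of 5967 and 4.43% of 1444 (5.42% ± 1.39) and Tet3 4.40% of 8767 and 4.29% of 2143 (4.35% ± 0.078, or 3.19% at such sites). No neighbours in this order differed by more than the larger of their SDs, while Tet1 and Tet3, at its ends, lay apart by more than either SD. The levels at sites with at least 10 calls rested, in replicate 2, on 2 body sites of Tdg and 15 of Tet3, under the minimum of 20. The median gene had 5.00% and 4.29%. Tet1 stood above 86.5% and 88.7% of genes, and Tet3 above 35.9% and 50.1%. Relative to the median gene Tet1 was at 1.37 times and 1.62 times, Tet2 at 1.281 and 1.03, Tdg at 1.33 and 1.02 and Tet3 at 0.881 and 1.00. Tet1 was thus at least 25% above the median gene in both replicates, as were 17.4% of all genes, and none of the 4 was at or under 0.8 times it, as were 21.7%.

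HM/MH, in which hmC faces mC, differed most between the replicates in Tet3 and Tdg. In Tet1 it was 4.10% and 4.02% (4.06% ± 0.060), in Tet2 3.39% and 3.32% (3.35% ± 0.043, or 6.15% at sites with at least 10 calls), in Tet3 5.18% and 2.80% (3.99% ± 1.68) and in Tdg 3.62% and 1.282% (2.45% ± 1.66), with n = 2 for each. The Tet2 level at sites with at least 10 calls rested on 11 body sites in replicate 2, under the minimum of 20. As called, 0 of the 4 were at least 25% above the median gene (4.22% and 2.69%) in both replicates and 0 were at or under 0.8 times it, where 5.26% and 9.52% of all genes were. The order of the genes as called differed between the libraries, with Tet3 highest in replicate 1 and Tet1 in replicate 2. The control duplexes of known state that were added to the libraries differed in the same state, since 4.51% of MM calls were read as HM/MH in replicate 1 and 0.467% in replicate 2, and 1.12% and 4.02% of HC as HM/MH. With the call rates of its own library taken into account, HM/MH was 2.61% and 3.70% in Tet1, 1.47% and 3.07% in Tet2, 2.38% and 2.42% in Tet3 and 1.24% and 0.879% in Tdg. Against the median gene corrected in the same way these were 1.63 and 1.59 times in Tet1, 0.918 and 1.32 in Tet2, 1.49 and 1.04 in Tet3 and 0.773 and 0.379 in Tdg. After correction Tet1 was thus the highest of the 4 and Tdg the lowest in both libraries, above 86.9% and 86.2% and above 33.1% and 8.77% of all genes. The corrected values carry no interval, and in replicate 1 Tet3 lay close to Tet1 and Tet2 close to Tdg. Tdg in replicate 2 rested on 5 HM/MH calls of 390, with an interval as called of 0.418 to 2.97%. HC/CH moved less, to 6.57% and 7.05% in Tet1 and 3.92% and 4.29% in Tet3.

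Whether hmC of a gene was more often paired with unmodified cytosine than with mC was asked with an exact binomial test of HC/CH against HM/MH calls, adjusted over 14794 genes. HC/CH was called higher in Tet1 (adjusted p = 4.05e-14 and 3.39e-04, exact test), as in 11.4% of all genes. Tet2 and Tdg passed in replicate 1 (adjusted p = 4.58e-12 and 8.26e-04, exact test) and not in replicate 2 (0.324 and 0.0718, exact test). In Tet3 HC/CH was below HM/MH in replicate 1 and above it in replicate 2 (adjusted p = 0.0540 and 0.0560, exact test). The test used calls without the call-rate correction. After correction HC/CH was above HM/MH in both libraries in all 4 genes, with HC/CH at 6.09% and 4.41% in Tet2 and 6.32% and 4.40% in Tdg. The medians over all genes had the same order, at 4.54% against 1.60% in replicate 1 and 4.27% against 2.32% in replicate 2. The corrected levels were not tested. As a share of all modified cytosines, hmC made up 13.7% and 11.2% in the Tet1 body, 10.3% and 7.59% in Tet2, 8.70% and 4.57% in Tdg and 7.19% and 5.18% in Tet3, against 7.63% and 5.27% in the median gene. Tet1 exceeded 95.2% and 92.7% of genes in this share. After the call-rate correction the share was 10.9% and 10.9% in Tet1, 7.36% and 7.25% in Tet2, 6.10% and 4.25% in Tdg, 4.27% and 4.86% in Tet3 and 4.73% and 4.96% in the median gene, and Tet1 exceeded 95.1% and 92.6% of genes.

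**Figure D4:**
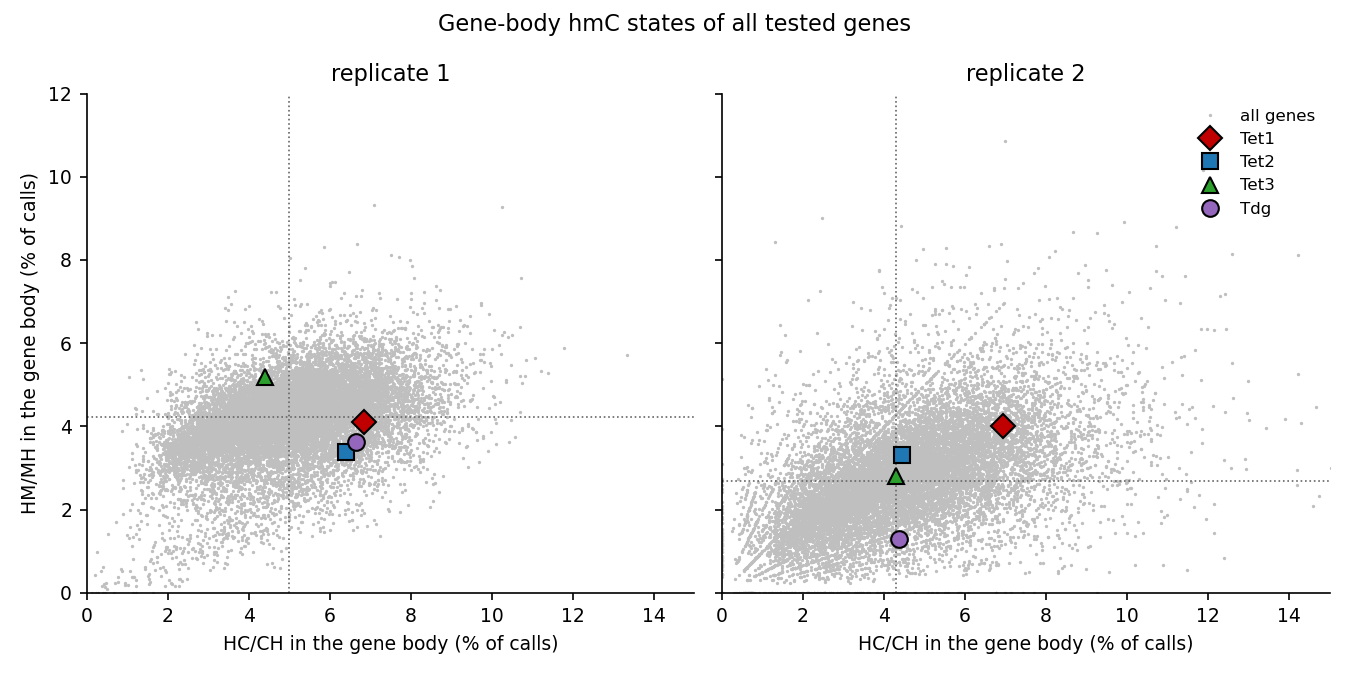
HC/CH against HM/MH in the gene body (percent of calls) for the 14794 genes with at least 20 body sites in each replicate, 1 panel per replicate, with the 4 genes marked and dotted lines at the medians; 7 genes of replicate 2 lie outside the axes. Tet1 lies to the right of the median in both panels, at 6.85% and 6.93% HC/CH, above 86.5% and 88.7% of genes. Tet3 moves from 5.18% HM/MH in replicate 1 to 2.80% in replicate 2.

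HC/CH was then read in blocks of 10 kb along the TET genes, as a description with no test. In Tet1 HC/CH was 0.920% and 2.11% from 10 to 20 kb, mostly inside the first unmodified run. It was 3.60% and 2.44% from 20 to 30 kb, which holds the second run. Beyond both runs it was 8.72% and 10.7% from 30 to 40 kb and 10.1% and 9.17% from 60 to 70 kb. CC over the same blocks fell from 89.9% and 85.9% at 10 to 20 kb to 19.4% and 5.53% at 80 to 90 kb. HC/CH in Tet1 was therefore lowest where CC was highest. The states share the same calls, so a high CC leaves fewer for HC/CH. Where CC was low HC/CH varied, between 7.41% and 9.15% in the last 3 blocks. From 70 to 80 kb, with CC at 28.7% and 20.8%, it was 6.59% and 3.96%. Tet2 had CC at 82.4% and 76.2% from 10 to 20 kb and 76.8% and 77.7% from 20 to 30 kb, and 17.2% and 17.7% from 40 to 50 kb. Between these, from 30 to 40 kb, its CC was 54.0% and 39.5% and its HC/CH 8.33% and 8.87%. In replicate 1 HC/CH of Tet2 was higher from 50 to 60 kb, at 9.34%, and from 80 to 82 kb, at 9.55%. Replicate 2 had 4.44% and 6.12% there. Tet3, the most methylated of the 4, had CC at 39.7% and 44.3% in its first 10 kb and 5.72% and 1.38% from 50 to 60 kb. Its highest HC/CH was in the last block, from 90 kb, with 6.63% and 9.49%.

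**Figure D5:**
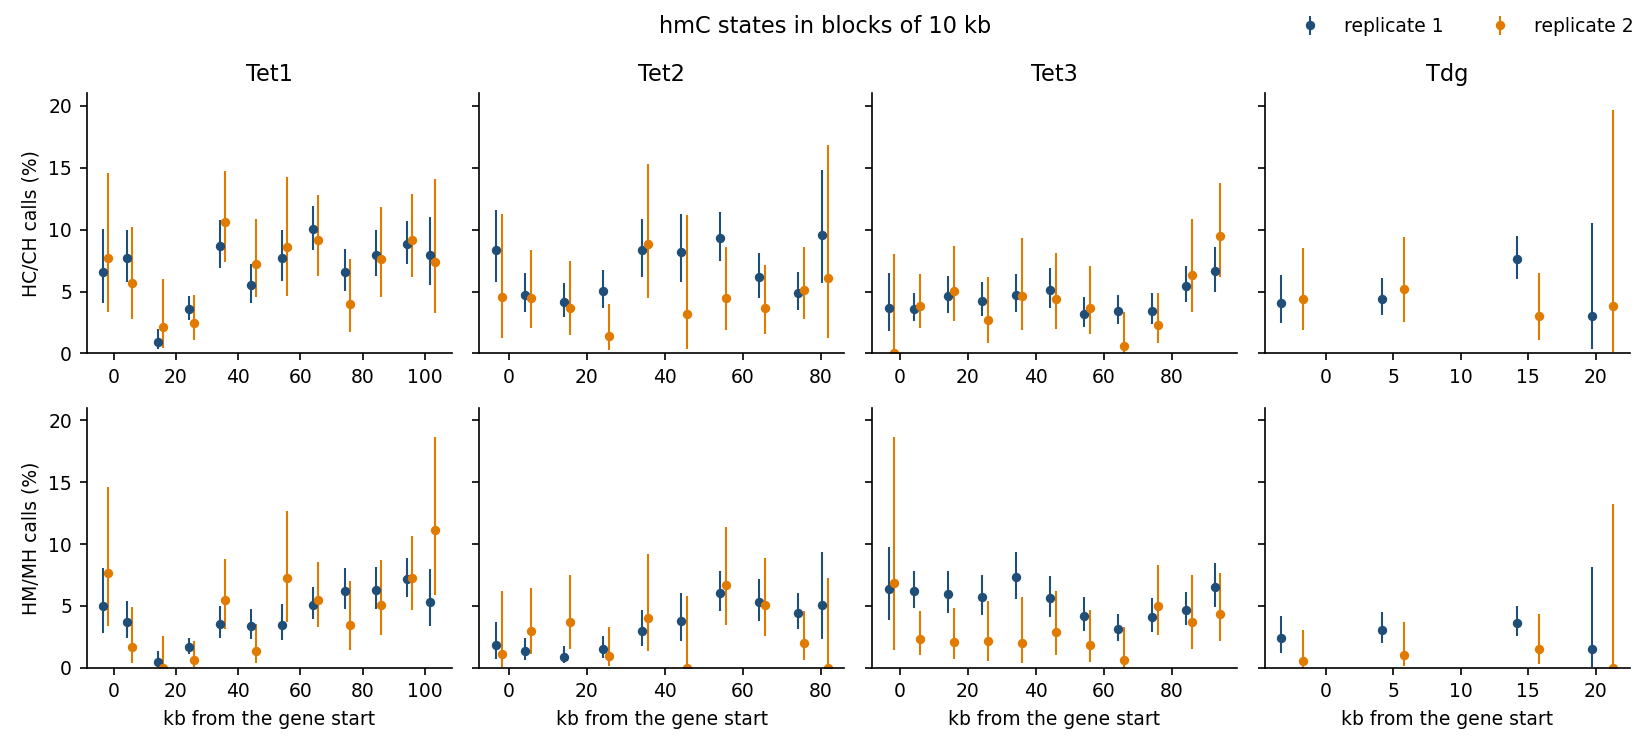
HC/CH (upper row) and HM/MH (lower row) as percent of calls in blocks of 10 kb against the distance from the gene start, 1 column per gene and 1 point per block and replicate, with 95% Clopper-Pearson bars. HC/CH of Tet1 is 0.920% and 2.11% in the block from 10 to 20 kb and 8.72% and 10.7% in the block from 30 to 40 kb, and the bars of replicate 2 are wider throughout.

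Exons and introns of the bodies were set side by side without a test. In Tet1 HC/CH was 9.07% and 8.97% in exons and 6.19% and 6.22% in introns, and HM/MH was 5.43% and 6.69% in exons and 3.70% and 3.08% in introns, while CC was 32.6% and 24.3% in exons and 53.5% and 46.4% in introns. Tet2 had HC/CH at 8.45% and 5.11% in exons and 5.75% and 4.21% in introns, with CC at 13.9% and 17.9% against 49.9% and 45.2%. In Tet3 HC/CH was 7.01% and 8.63% in exons and 3.94% and 3.39% in introns, HM/MH was 5.26% and 4.85% in exons and 5.16% and 2.37% in introns, and CC was 23.0% and 15.9% in exons and 17.9% and 18.3% in introns, an order that differed between the libraries. As a share of all modified cytosines, hmC made up 13.7% and 12.6% in Tet1 exons and 13.7% and 10.4% in its introns. In Tet2 this share was 10.2% and 7.14% in exons against 10.4% and 7.81% in introns, and in Tet3 9.88% and 10.4% against 6.75% and 4.07%. Exons and introns were not compared over all genes, so these values are not set against a background. Tdg exons had 23 and 5 covered sites and are not compared.

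The stretch from 1 to 5 kb downstream of the gene start was compared with the rest of the body, which gave 0 calls in the 3 genes with enough sites. Tet1 had HC/CH at 12.4% against 6.67% in replicate 1 (adjusted p = 0.00425, Fisher's exact test) and 9.68% against 6.82% in replicate 2 (adjusted p = 0.739, exact test). From the RefSeq start, whose first 5 kb lie in the unmodified stretch, the order turned, with 0.394% against 8.20% in replicate 1 (adjusted p = 5.94e-13, exact test) and 0% against 8.11% in replicate 2 (adjusted p = 0.165, exact test), again without a call. With CpG sites as the units, a pair of choices made after the data were seen, HC/CH and HM/MH of Tet1 were both called lower near this start, where the sites of replicate 2 were all at 0% and so had no variance over sites. Tdg went opposite ways, at 5.06% against 7.18% and 9.47% against 2.71% (adjusted p = 0.346 and 0.153, exact test), and Tet2 had 9 sites in replicate 2, under the minimum of 10. At an unadjusted p under 0.05 in both replicates and in 1 direction, 0 of 3 genes passed from the GENCODE start, and Tet1 passed for HC/CH, lower near the start, from the RefSeq start (unadjusted p = 9.51e-16 and 0.00817, exact test). Over 9326 genes from the GENCODE start, 0.418% were called higher near the start and 0.686% lower for HC/CH, and 0% either way for HM/MH. Over 6865 genes from the RefSeq start the shares were 0.248% and 0.306% for HC/CH, and 0.0291% and 0% for HM/MH. These are shares by adjusted p with calls as the units. Those at the unadjusted cut and with sites as the units are not reported here. Whether a modification sat more often on the sense or the antisense strand was asked for MC/CM, HC/CH and HM/MH with an exact binomial test. It called 0 of the 4 genes, and 0% of the 14794 genes tested, in each state. The smallest unadjusted p was 0.0133 (exact test), for HM/MH of Tet2 in replicate 2, with 1.04% on the sense and 2.29% on the antisense strand, and replicate 1 had 1.83% and 1.56%.

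Within each body the window of 500 bases with the highest level in replicate 1 was then read in replicate 2. Eligible windows had at least 4 sites and 40 calls in replicate 1 and 20 calls in replicate 2. The levels of replicate 2 took no part in the choice. None of the 8 windows, 1 for HC/CH and 1 for HM/MH in each gene, was called in replicate 2 by the adjusted p of Fisher's exact test. Among 16108 genes 3.18% had a called HC/CH window and 0.652% a called HM/MH window. The Tet2 window is an intronic stretch at chr3:133481639-133482138, 63250 bases into the gene, and was the highest for both states. HC/CH there was 16.2% against 6.28% of the rest of the body in replicate 1, the values that chose it, and 13.9% (5 of 36 calls) against 4.19% in replicate 2 (p = 0.0190, adjusted p = 0.206, exact test), with HM/MH at 9.46% and, in replicate 2, 8.33% or 3 of 36 calls (p = 0.115, adjusted p = 0.837, exact test). Its CpGs span chr3:133481776-133481993, which is shown, on the gene's strand of GRCm38.p6 with CpGs in capitals, since it was the chosen window of both hmC states.
Tet2 intronic window: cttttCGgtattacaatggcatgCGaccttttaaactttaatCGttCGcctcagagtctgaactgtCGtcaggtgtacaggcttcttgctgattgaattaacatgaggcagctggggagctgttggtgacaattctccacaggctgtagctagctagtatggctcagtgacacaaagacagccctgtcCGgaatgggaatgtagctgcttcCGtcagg
The Tet1 window for HM/MH lies in coding sequence at chr10:62812496-62812995, 96250 bases into the gene, with 16.2% against 3.93% in replicate 1, the values that chose it, and 10.7% (8 of 75 calls) against 3.81% in replicate 2 (p = 0.00929, adjusted p = 0.295, exact test). MM was 50.8% and 60% of its calls and HC/CH 9.23% and 12%. A stretch of 300 bases of it, chr10:62812537-62812836, follows in the same form, because it holds 12 CpGs of coding sequence and hmC calls of either kind in both libraries.
Tet1 coding window: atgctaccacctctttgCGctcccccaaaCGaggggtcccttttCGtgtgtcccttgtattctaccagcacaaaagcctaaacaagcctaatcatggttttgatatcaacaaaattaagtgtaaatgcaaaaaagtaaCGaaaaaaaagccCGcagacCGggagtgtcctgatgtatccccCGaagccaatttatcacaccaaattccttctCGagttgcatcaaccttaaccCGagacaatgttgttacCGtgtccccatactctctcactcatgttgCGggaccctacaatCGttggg
The Tet1 window for HC/CH, chr10:62863496-62863995, had 25.0% in replicate 1 and 8.33% in replicate 2, or 2 of 24 calls (p = 0.681, exact test). The remaining windows, those of Tet3 and Tdg, had at most 1 call of their state in replicate 2.

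Single CpGs were taken as the 3 of each gene with the highest share of calls with hmC in replicate 1, among sites with at least 10 calls there and 5 in replicate 2. Such sites numbered 240 in Tet1, 163 in Tet2, 158 in Tet3 and 56 in Tdg. Replicate 1 chose the 3, so its values are high by construction, and the levels of replicate 2 took no part in that choice. The 5 sites with at least 2 hmC calls in replicate 2 are shown with 20 bases of the gene's strand and the CpG itself in capitals. Replicate 2 decided which sites are shown, so its values at them are not independent of that cut.
Tet1, intron, position 62877556 of chromosome 10: gcccccttaCGtctaagaag
Tet1, coding exon, position 62812585 of chromosome 10: tgttgttacCGtgtccccat
Tet2, intron, position 133481946 of chromosome 3: ttaatcgttCGcctcagagt
Tet2, intron, position 133508940 of chromosome 3: ctggggctgCGtatctgaag
Tdg, upstream, position 82627437 of chromosome 10: tttctgccaCGtaacctaaa
At the Tet1 intronic site 6 of 11 calls held hmC in replicate 1 and 2 of 7 in replicate 2, and at the coding site 5 of 10 and 3 of 8, none of them HC/CH. The coding site lies in the HM/MH window shown above. The first Tet2 site, inside the intronic window, had 7 of 12 and 3 of 10, and the other had 8 of 15 and 4 of 11. Both Tet2 sites are in introns. At the Tdg site, 2.39 kb upstream of the gene start, 5 of 16 and 3 of 8 calls held hmC. Of the other 7 sites 6 had 0 hmC calls in replicate 2, among them all 3 of Tet3, and 1 of Tdg had 1 of 5.

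The levels of hmC in single bins of 1 kb agreed less between the libraries than those of CC. Pearson's r was 0.446 in Tet1, 0.553 in Tet2, 0.398 in Tet3 and 0.348 in Tdg for HC/CH, and 0.492, 0.390, 0.0361 and -0.0527 for HM/MH, over the same bins as above. At about 6 calls per site in replicate 2, single bins and sites hold few hmC calls, which limits what can be said below the scale of a gene. The libraries also differed in call rates, with 4.51% of MM read as HM/MH in replicate 1 and 0.467% in replicate 2. Why the hmC states agreed less was not tested.

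Other genes by their pattern over 12 values, the promoter and body levels of the 6 states averaged over the replicates, were ranked by Euclidean distance in percentage points. Nearest to Tet2 were Ostm1 (distance 1.02) and Agrp (1.64), nearest to Tdg were Tmem189 (2.03) and Recql5 (2.14), and nearest to Tet3 at its gene start were Gm34653 (4.71) and Ugt1a5 (5.06). The Tet3 neighbours lay further away and had methylated promoters, with a mean CC of 12.3% and 13.6%. From the RefSeq start the nearest genes to Tet1 were Hk2 (1.49) and Tbc1d2 (1.95), and to Tet3 Chd1l (1.45) and Tram2 (2.18). With that start the neighbours of the other two genes changed as well, to Ccl25 (1.22) and Zfp961 (1.52) for Tet2 and Ssb (1.14) and Coq4 (1.95) for Tdg.

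A list of 22 further genes of cytosine modification was read in the same way: the DNA methyltransferases and Uhrf1, the glycosylases and repair factors of base excision, and partners, cofactor enzymes and regulators of the TET proteins. Of the list 18 genes passed the body minimum and 19 the promoter minimum, and Gadd45b had 0 covered sites in either region. Promoters with at least 80% CC in both replicates numbered 12 of 19, beside 53.3% of all genes. Of the 17 genes with both regions, CC was called higher in the promoter in 14 (83.0% of all genes) and HC/CH lower in 3 (8.46%). HC/CH was called higher in the promoter in 1, as in 0.638% of all genes. This was Dnmt3l, the catalytically inactive cofactor of the de novo methyltransferases, at 10.2% and 17.5% in the promoter against 5.63% and 5.41% in the body, named after its values were seen.

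In the bodies of the list, the median HC/CH was 6.10% and 5.20%, and that of HM/MH 4.68% and 2.94%. HC/CH was at least 25% above the median gene in 5 of 18 genes (17.4% of all genes), which were Uhrf1, Xrcc1, Parp1, Cxxc5 and Idh2, and at or under 0.8 times in 3 (21.7%), which were Neil3, Cxxc4 and Idh1. By the mean of the replicates the highest was Uhrf1, the factor that brings Dnmt1 to hemimethylated DNA, at 10.7% and 7.04%, and the lowest Neil3, a glycosylase of oxidised bases, at 3.25% and 1.78%. Single replicates ordered them otherwise, since Cxxc5 (7.50%), Parp1 (7.45%) and Idh2 (7.29%) were above Uhrf1 in replicate 2 and Cxxc4 (3.15%) was below Neil3 in replicate 1. Tet1, at 6.85% and 6.93%, lay above the median of the list in both replicates. For HM/MH, 2 of the 18 were at least 25% above and 1 at or under 0.8 times the median gene (5.26% and 9.52% of all genes). HC/CH was called above HM/MH in 4, Dnmt1, Xrcc1, Parp1 and Cxxc5, beside 11.4% of all genes. These shares of the list stand on 17 to 19 genes, and they were not tested against the rest.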

How the data were processed

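SCoTCH-seq libraries of genomic DNA from 2 replicates of E14 mESCs were analysed. According to the study's methods, the authors trimmed reads with Cutadapt 4.6, aligned the inserts with BSBolt to GRCm38 (mm10), removed duplicates with Picard 3.1.1, combined the 4 inserts of a read pair into 1 call, and removed blacklisted regions (versions from the submitters' processing notes). The deposited tables give, for each CpG with at least 5 calls, the count of each of the 9 states and the same as percent of calls. Depth was 143497239 and 31306245 calls.

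Here counts were summed over the CpGs of a region. Of 3130693 positions checked against the genome, 0 were off the C of a CpG. Genes, starts and exons came from GENCODE vM21 and sequences and further starts from the GRCm38.p6 RefSeq release. Regions entered a test with at least 5 promoter, 20 body, or 10 proximal and 10 distal sites in each replicate. Fisher's exact and exact binomial tests were run per replicate over all protein-coding genes, tested on simulated data first, with Benjamini-Hochberg adjustment (Python 3.11.15, NumPy 2.4.6, pandas 2.3.3, SciPy 1.17.1, Numba 0.67.0, Matplotlib 3.10.9). Corrected levels solved the call-rate matrix of the control duplexes of the same library (sites with at least 1000 calls), taking each control site's most frequent call as its true state. Starts within 1 kb were merged. Named genes were the 4 members in every result, the highest and lowest of the pathway list, list genes above or below these in 1 replicate, marker genes and Dnmt3l (the last 3 kinds outside the rule fixed for naming), the 2 genes nearest to each member, 1 window per state and 3 single sites per member. The members and lists were chosen with earlier results of these data known. Alternatives tried were leaving out a replicate, a coverage minimum of 10 calls, sites in both replicates, mean site percentages, corrected levels, sites as units, other widths and cut-offs, and the RefSeq start.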

Additional observations from a re-analysis of the deposited data

How the results depend on the processing

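Of the comparisons, promoter against body gave 5 calls over the 4 genes, 6 without replicate 1 and 10 without replicate 2, 8 with CpG sites as units, 13 from the RefSeq start, 17 from there with sites as units and 0 at a coverage minimum of 10 calls, at which replicate 2 kept 0, 0, 1 and 0 promoter sites and 25, 11, 15 and 2 body sites in Tet1, Tet2, Tet3 and Tdg, so that no gene could be tested. HC/CH against HM/MH gave 1 call (Tet1), 1 without replicate 1, 3 without replicate 2 and 0 at the coverage minimum of 10. The proximal against distal comparison gave 0 calls, 0 without replicate 1 and 1 (Tet1 HC/CH, higher near the start) without replicate 2, and from the RefSeq start 0 calls with Tet1 HC/CH turned, to 0.394% near the start against 8.20%, and 0% against 8.11%, and 2 calls from there with sites as units. Unmethylated promoters numbered 2, 0 at the coverage minimum of 10 for want of the same sites and 4 from the RefSeq start. Calls of HC/CH or HM/MH at least 25% above or 20% below the median gene numbered 1 (Tet1), 3 after correction, 3 with either replicate left out, 2 over sites in both replicates and 0 at a fold of 1.5. Without replicate 2 the 3 were HC/CH above the median gene in Tet1, Tet2 and Tdg. Without replicate 1, and after correction, they were HC/CH and HM/MH above it in Tet1 and HM/MH below it in Tdg. The shares of all genes past these folds are given for the main setting only. The strand and window comparisons gave 0 calls in every setting run.

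Levels moved beyond 1 SD as follows, with HC/CH and HM/MH of Tet1 first. They were 6.68% and 4.18% as the mean of site percentages, 6.81% and 3.15% after correction, 6.61% and 3.997% at the coverage minimum of 10, and 7.77% and 4.77% from the RefSeq start, and HC/CH was 7.14% over sites in both replicates. HM/MH of Tet2 was 3.45%, 2.27%, 6.15% and 3.43% in the same 4 settings and 3.102% over sites in both. HC/CH of Tet3 was 4.10% after correction, 3.19% at the coverage minimum, 3.52% over sites in both and 4.46% from the RefSeq start, and that of Tdg 3.21% at the coverage minimum. The cause of these shifts was not tested in any setting. No direction called in both replicates reversed, but at the coverage minimum mean HC/CH fell below HM/MH in Tet2 (5.67% and 6.15%) and Tet3 (3.19% and 4.20%). These means rested on 11 and 15 body sites in replicate 2. A call that needs both replicates was missing for want of replicate 2 in some comparisons and of replicate 1 in others, such as CC of the Tet3 promoter (adjusted p = 0.753 in replicate 1 and 0.0335 in replicate 2, exact test). No paired analysis was possible because the libraries form 1 group.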
